A study of Rattus norvegicus with 12 samples.

Results

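The metalloproteinases and their tissue inhibitors were read by 74 probe sets of 51 genes, out of 31042 probe sets tested, in the tibia of pre-pubertal female rats given soy protein, estradiol or both. A probe set was taken when the array annotation gave it exactly 1 gene symbol and that symbol was an Mmp, Adam or Adamts gene or Timp1 to Timp4, a rule that uses no measured value, although the set was chosen with earlier results of these data known. They comprised 24 probe sets of 17 Mmp genes, 27 of 18 Adam genes, 15 of 12 Adamts genes and 8 of 4 Timp genes, and all 74 were tested.

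Matrix metalloproteinases (MMPs) are zinc enzymes that cut collagens, proteoglycans and other matrix proteins, and they are made as inactive proenzymes. In growing bone they take part in the removal of calcified cartilage and in osteoclastic resorption. ADAM proteins are membrane-bound relatives, some of which release growth factors and cytokines from the cell surface while others have lost the catalytic site and act in cell contact. ADAMTS enzymes are secreted, bind the matrix and include the enzymes that cleave the cartilage proteoglycan aggrecan, and the TIMPs bind and inhibit many of these proteases.

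In the SPI group, female Sprague-Dawley offspring were weaned onto a diet with soy protein isolate. The E2 group ate the casein diet and received 17β-estradiol at 10 µg/kg/d from a subcutaneous osmotic pump, the SPI+E2 group had the soy diet with the same pump, and the CAS controls ate casein alone. All were born to casein-fed dams, and the labels give treatment from postnatal day 21 and sacrifice on postnatal day 34. Each group had 3 Affymetrix arrays, each with pooled RNA of 2 to 3 rats from tibia whose marrow had been aspirated, so the p-values measure the spread between pools of rats, and 3 arrays a group set the precision.

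The deposited values are log2 values centred on each probe set's median over the 12 arrays. A value is therefore a difference from that median and not a level, neither levels of different genes nor the presence of bone markers can be read from it, and fewer cells of a type cannot be told apart from less RNA per cell. Within groups the SD of a member had a median of 0.0845 with SPI, 0.0667 with E2, 0.0918 with SPI+E2 and 0.0736 in CAS. The array of SPI pool 1 lay farthest from its group, with a SD of 0.129 over all probe sets, against 0.0755 to 0.106 on the other 11 arrays. Changes are differences of group means from limma over 4 groups of 3 arrays, and a call means a p under 0.05 after Benjamini-Hochberg adjustment across the 31042 probe sets, and the comparisons against CAS share the same 3 CAS arrays.

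Several Mmp genes lie close together on rat chromosome 8, and the start regions of 3 of them are shown because they carry similar promoter letters and were read separately on the array. RefSeq promoters of assembly GRCr8, from 250 bases before to 50 after the gene start, were found for 30 of the 51 genes. The AP-1 motif TGANTCA, searched on both strands, was present in 6 of the 30 (Mmp3, Mmp7, Mmp10, Mmp12, Mmp13 and Adam19) and in 7.33% of all 33469 promoters. The letters TATAAA were present in 9 of 30, against 14.2% of all promoters, and the GC box GGGCGG in 17 of 30, against 33.1%, each on both strands. In the 4 sequences below, all on the plus strand, capitals mark TGANTCA and TATAAA, on either strand, in the Mmp promoters and the GC box, as its reverse complement, in Adam22, the member with the largest change. Overlapping matches were not marked separately. In Mmp10 the marked TTTATA overlaps a forward TATAAA, whose last letters are therefore in lower case.
Mmp3, stromelysin 1, chr8:12925031-12925330: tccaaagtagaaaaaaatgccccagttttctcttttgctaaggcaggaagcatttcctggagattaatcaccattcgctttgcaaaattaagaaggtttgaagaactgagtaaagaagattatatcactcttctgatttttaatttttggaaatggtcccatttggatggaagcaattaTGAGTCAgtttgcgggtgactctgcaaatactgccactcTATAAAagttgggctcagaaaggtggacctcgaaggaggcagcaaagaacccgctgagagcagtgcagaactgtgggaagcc
Mmp10, stromelysin 2, chr8:12974457-12974756: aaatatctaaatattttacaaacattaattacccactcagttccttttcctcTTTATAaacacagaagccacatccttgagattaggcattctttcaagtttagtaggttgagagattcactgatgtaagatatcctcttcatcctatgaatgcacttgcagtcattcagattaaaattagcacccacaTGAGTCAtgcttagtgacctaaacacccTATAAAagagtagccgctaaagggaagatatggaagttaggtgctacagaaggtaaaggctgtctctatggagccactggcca
Mmp13, collagenase 3, chr8:12782579-12782878: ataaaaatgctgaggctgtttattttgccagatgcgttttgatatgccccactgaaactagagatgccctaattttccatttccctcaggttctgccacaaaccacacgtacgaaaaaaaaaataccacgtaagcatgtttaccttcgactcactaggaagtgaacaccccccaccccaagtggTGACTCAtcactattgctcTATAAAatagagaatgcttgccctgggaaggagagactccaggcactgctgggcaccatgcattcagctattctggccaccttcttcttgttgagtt
Adam22, chr4:26670862-26671161: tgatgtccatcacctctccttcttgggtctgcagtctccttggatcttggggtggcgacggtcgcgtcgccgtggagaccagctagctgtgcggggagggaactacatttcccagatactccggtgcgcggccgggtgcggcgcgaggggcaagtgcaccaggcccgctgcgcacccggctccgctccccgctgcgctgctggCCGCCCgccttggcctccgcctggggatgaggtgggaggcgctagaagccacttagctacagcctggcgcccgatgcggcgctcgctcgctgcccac
The AP-1 letters began 71 bases before the start of Mmp3, 61 before Mmp10 and 66 before Mmp13, and the nearest TATAAA 32, 33 and 47 bases before. Of these 3 genes Mmp3 passed with E2 and the other 2 did not, as described with the stromelysins. A match of letters is a description and not a measured binding site.

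With SPI against CAS, 17 of the 74 probe sets (23%) passed the test, 12 higher and 5 lower, beside 17.3% of all probe sets (8.25% higher and 9.07% lower). The higher ones were 4 of Mmp, 7 of Adam and 1 of Adamts, and the lower ones 3 of Mmp and 2 of Adamts. This split of directions was 9 higher and 8 lower on gene means, and 7 each without CAS 2. With E2, 8 were higher and 0 lower (10.8% in all, beside 9.35% of all probe sets, 4.99% higher and 4.36% lower), namely 3 of Mmp, 4 of Adam and 1 of Timp. The unadjusted p with E2 was under 0.05 for 15 of the 74, beside 20.3% of all probe sets. With SPI+E2, 4 were higher and 4 lower, which was 10.8% beside 8.48% of all probe sets (4.14% higher and 4.33% lower). The median change of the 74 lay close to that of all probe sets, at 0.02 against 0.01 with SPI, 0.04 against -0.01 with E2, and 0.03 against 0.02 with SPI+E2.

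Between the treatments, SPI against E2 gave 5 higher and 10 lower members (20.3%, beside 16.7% of all probe sets, 7.98% higher and 8.75% lower), and the lower ones were 4 of Mmp, 4 of Adamts and 2 of Timp. SPI+E2 against E2 gave 4 higher and 9 lower (17.6%, beside 10.5%, 4.92% higher and 5.53% lower), or 3 and 15 after quantile normalization, and SPI+E2 against SPI gave 2 higher and 5 lower (9.46%, beside 11.4%, 5.56% higher and 5.83% lower), or 1 and 5 after quantile normalization or median centring. The interaction is the effect of E2 on the SPI diet minus its effect on the casein diet. Its unadjusted p was under 0.05 for 16 of the 74, beside 21.7% of all probe sets. It passed the test below 0 in 9 members and above 0 in 0 (12.2%, beside 9.92% of all probe sets, with 4.17% above and 5.75% below 0). With CAS 1 or SPI+E2 2 left out 1 member passed above 0, and with SPI 2 left out 2 did. The median change of the members was -0.04 against 0.02 of all probe sets for SPI against E2, and -0.07 against 0.03 for SPI+E2 against E2. Among the 4 groups 23 members differed by the F test (31.1%, beside 25.2%). In all, 31 of the 74 probe sets, of 25 genes, passed in at least 1 of the 7 comparisons, beside 9884 of all 31042 probe sets (31.8%). The other 43 passed in none, with changes against CAS between -0.36 and 0.38.

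**Figure D1:**
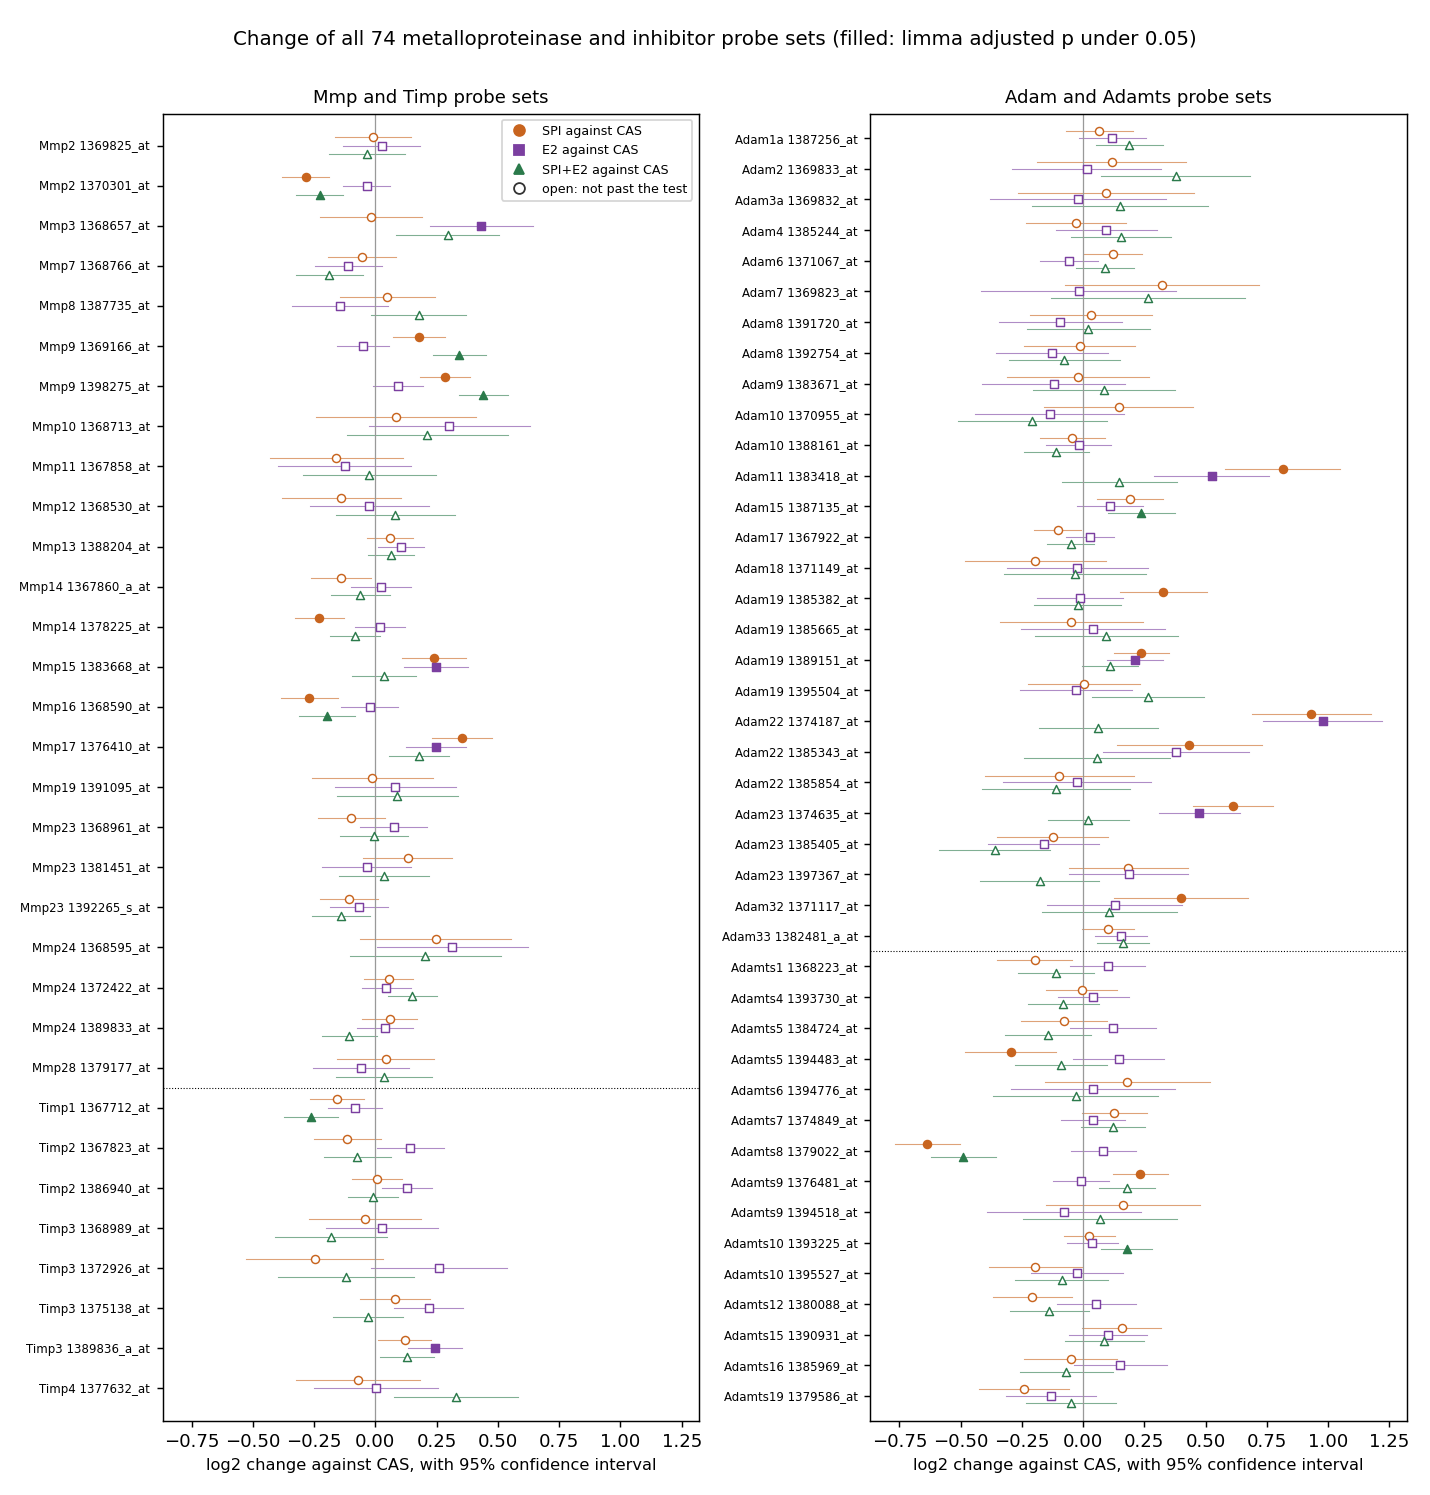
Change against CAS in log2 units (x axis) for each of the 74 probe sets (rows), with 95% confidence intervals, for SPI (circles), E2 (squares) and SPI+E2 (triangles), 3 arrays per group. Filled symbols passed the limma test: 17 for SPI and 8 for each of the others, with Adam22, Adam23 and Adam11 at the high end for SPI and E2 and Adamts8 at the low end for SPI and SPI+E2.

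The largest changes belonged to Adam22, Adam23 and Adam11, which encode ADAM proteins without catalytic activity that are known from neurons, ADAM22 and ADAM23 as synaptic receptors of the secreted protein LGI1. Probe set 1374187_at of Adam22 read 0.23, 0.59 and 0.63 with SPI, 0.50, 0.48 and 0.61 with E2, -0.38, -0.55 and -0.23 with SPI+E2, and -0.45, -0.57 and -0.33 in CAS. All 6 arrays of the single treatments lay above all 6 arrays of SPI+E2 and CAS, and those of SPI+E2 and CAS overlapped. Its means were 0.48 ± 0.22 with SPI, 0.53 ± 0.07 with E2, -0.38 ± 0.16 with SPI+E2 and -0.45 ± 0.12 in CAS (SD, n = 3 each). Against CAS it was 1.91-fold higher with SPI, by 0.93 log2 units (SE 0.111, adjusted p = 1.45e-04), and 1.97-fold higher with E2, by 0.98 log2 units (SE 0.111, adjusted p = 1.33e-04). With SPI+E2 the difference from CAS was 0.06 (adjusted p = 0.782, 95% interval -0.18 to 0.31), and the difference of SPI+E2 from SPI was -0.87 (SE 0.111, adjusted p = 3.18e-04). The interaction was -1.85 log2 units (SE 0.157, adjusted p = 9.56e-06).

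Adam23 showed a similar split between groups on probe set 1374635_at, which read 0.28, 0.36 and 0.41 with SPI, 0.27, 0.14 and 0.24 with E2, -0.14, -0.43 and -0.15 with SPI+E2, and -0.25, -0.26 and -0.28 in CAS. Again every array of SPI and of E2 lay above every array of SPI+E2 and CAS. The change against CAS was 0.61 (SE 0.0753, adjusted p = 1.85e-04) with SPI and 0.48 (SE 0.0753, adjusted p = 0.00145) with E2. For SPI+E2 it was 0.02 (SE 0.0753, adjusted p = 0.896), and the interaction was -1.07 (SE 0.107, adjusted p = 3.66e-05). On the mean of its 3 probe sets the E2 change was 0.17 (adjusted p = 0.0502), which did not pass. SPI and E2 did not differ past the test in either gene, with differences of 0.14 (95% interval -0.03 to 0.30) for Adam23 and -0.05 (95% interval -0.29 to 0.20) for Adam22.

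Adam11 had 1 probe set, 1383418_at, which read 0.44, 0.38 and 0.64 with SPI, 0.08, 0.10 and 0.42 with E2, -0.24, -0.21 and -0.08 with SPI+E2, and -0.27, -0.51 and -0.19 in CAS. The SPI arrays and the E2 arrays lay above all CAS arrays, 1 of the 3 E2 arrays reached the range of SPI, and SPI+E2 overlapped CAS. It was 1.76-fold higher with SPI, by 0.81 log2 units (SE 0.108, adjusted p = 3.23e-04), and 1.44-fold higher with E2, by 0.52 log2 units (SE 0.108, adjusted p = 0.00837), against 0.15 (SE 0.108, adjusted p = 0.447) with SPI+E2. The interaction was -1.19 (SE 0.153, adjusted p = 2.92e-04), and the difference of SPI+E2 from E2 was -0.38 (adjusted p = 0.0468), a call lost when any of 10 of the 12 arrays was left out (adjusted p up to 0.167).

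The other probe sets of Adam22 and Adam23 did not all follow. Probe set 1385343_at of Adam22 averaged 0.30 ± 0.27 with SPI, 0.24 ± 0.24 with E2, -0.08 ± 0.08 with SPI+E2 and -0.14 ± 0.11 in CAS (SD, n = 3 each). Its change was 0.43 (adjusted p = 0.0471) with SPI, a call lost with any 1 of 9 arrays left out (adjusted p up to 0.165), and 0.38 (adjusted p = 0.123) with E2, which did not pass. Its interaction of -0.76 (adjusted p = 0.0272) was lost without CAS 1, CAS 3, SPI 3, E2 3, SPI+E2 2 or SPI+E2 3 (adjusted p up to 0.0703). Probe set 1385854_at passed in no comparison, with changes against CAS of -0.10, -0.03 and -0.11 in the order SPI, E2, SPI+E2. For Adam23, 1397367_at passed only for the interaction, at -0.55 (adjusted p = 0.0482) (lost with any 1 of 10 arrays left out, adjusted p up to 0.11), and 1385405_at in none, with -0.12, -0.16 and -0.36 against CAS for SPI, E2 and SPI+E2 in this order.

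Neuronal marker genes were also higher with SPI and with E2 than with SPI+E2 and in CAS. The mean of 13 neuron genes, which include the neurofilament genes Nefl, Nefm and Nefh and the synaptic gene Snap25, lay between 0.38 and 0.45 on the SPI arrays, 0.23 and 0.25 on the E2 arrays, -0.23 and -0.19 on the SPI+E2 arrays, and -0.46 and -0.42 on the CAS arrays. Of the 13, 12 were higher with each single treatment and 8 with SPI+E2, with 0 lower, beside 25.4%, 14.2% and 12.9% of all 14217 genes called in either direction. In the interaction 12 were below 0, and Syt1 was the exception. Of 8 glia genes 8 were higher and 0 lower with SPI, 4 and 1 with E2, and 1 and 2 after both. Their part in the Adam results was not tested, and centred values do not show whether any defining neuron gene was near background.

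**Figure D2:**
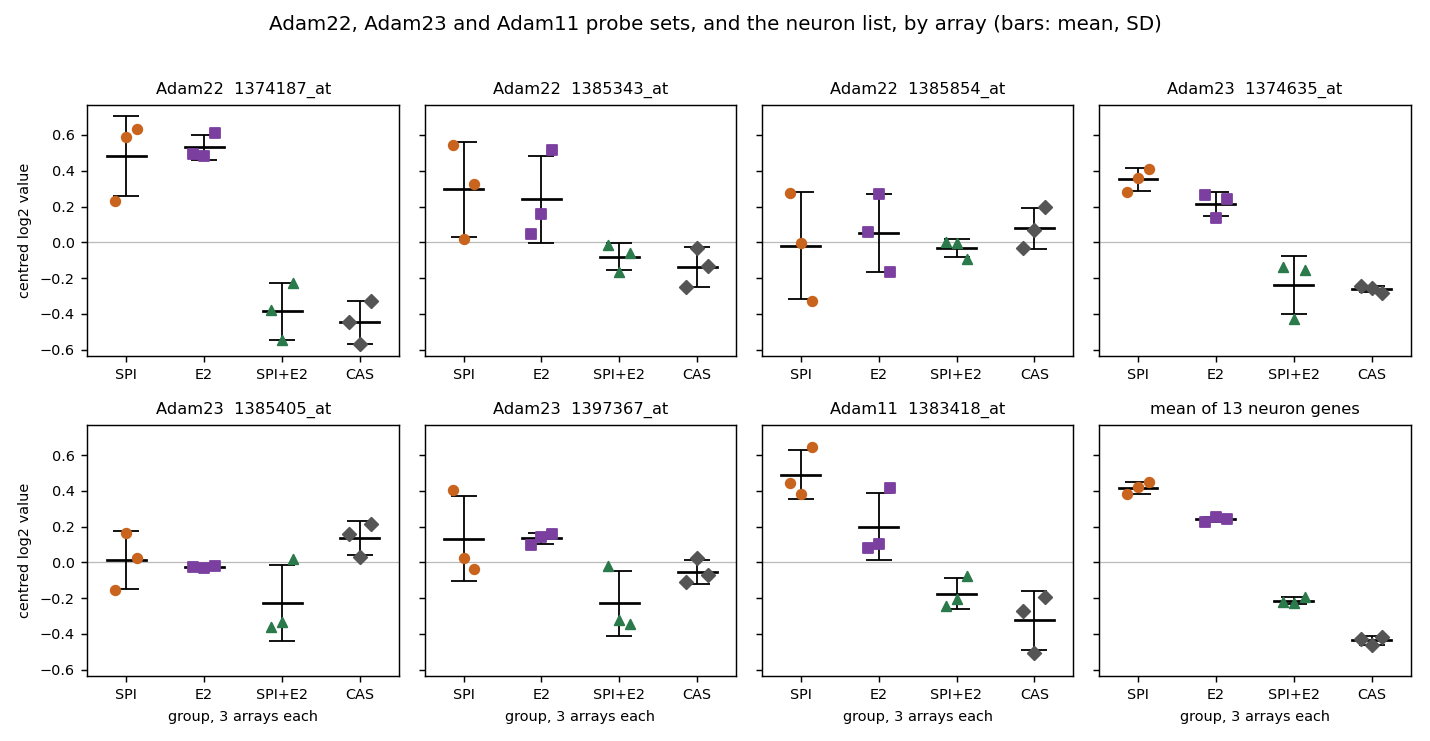
Centred log2 value (y axis) on each array by group (x axis, 3 arrays each) for the 7 probe sets of Adam22, Adam23 and Adam11, and the mean of 13 neuron genes, with bars for the mean and SD. SPI and E2 arrays lie above SPI+E2 and CAS in Adam22 1374187_at, Adam23 1374635_at, Adam11 and the neuron mean, while Adam22 1385854_at and Adam23 1385405_at do not show this order.

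Among the remaining Adam genes, Adam19 (meltrin beta, an active membrane protease) was higher with SPI on 2 of its 4 probe sets. Probe set 1385382_at read 0.45, 0.35 and 0.18 with SPI, 0.00, 0.00 and -0.05 with E2, 0.10, -0.15 and -0.02 with SPI+E2, and -0.07, -0.05 and 0.11 in CAS. The 3 SPI arrays lay above all other arrays, and those of the other groups overlapped. It rose by 0.33 log2 units (SE 0.0808, adjusted p = 0.0157) with SPI, a call lost without CAS 1, CAS 2 or SPI 1 (adjusted p = 0.055 to 0.0656), and its changes with E2 and SPI+E2 were -0.01 and -0.02, neither past the test. Probe set 1389151_at rose by 0.24 (SE 0.0516, adjusted p = 0.00804) with SPI and by 0.21 (SE 0.0516, adjusted p = 0.0227) with E2, the second lost with any 1 of 5 arrays left out (adjusted p up to 0.0926), and its interaction was -0.34 (adjusted p = 0.0108). The other 2 Adam19 probe sets passed nothing, and on the mean of all 4 no Adam19 call held, with 0.13 for SPI (adjusted p = 0.137), 0.05 for E2 (adjusted p = 0.671) and -0.07 for the interaction (adjusted p = 0.652).

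Adam15 (metargidin) passed with SPI+E2 and not with SPI or E2 against CAS, at 0.24 (SE 0.062, adjusted p = 0.0358), and lost that call with any 1 of 7 arrays left out (adjusted p up to 0.134), with 0.19 for SPI and 0.11 for E2. Adam32, known from testis, was at 0.40 (adjusted p = 0.0485) with SPI, where SPI 1 read 0.67 and the other 2 arrays 0.16 and 0.14, and the call was lost with any 1 of 9 arrays left out (adjusted p up to 0.125). Adam6 differed between SPI and E2 only, by 0.18 (adjusted p = 0.0411), also lost with any 1 of 9 arrays left out. Adam2, the sperm surface protein fertilin beta, had the largest Adam change with SPI+E2 but did not pass. It read 0.16, -0.26 and 0.10 with SPI, -0.22, -0.04 and -0.06 with E2, 0.55, 0.09 and 0.14 with SPI+E2, and 0.04, -0.31 and -0.08 in CAS, and 1 SPI+E2 array at 0.55 stood above the rest, for a change of 0.38 (adjusted p = 0.122).

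The main shedding enzymes of this family showed no called change. Adam17, which releases tumor necrosis factor alpha, had -0.10, 0.03 and -0.05 against CAS for SPI, E2 and SPI+E2. Adam10, which cleaves Notch receptors, had changes between -0.21 and 0.14 over both probe sets, and Adam8, known from leukocytes and osteoclasts, between -0.13 and 0.03. For Adam17 the 95% intervals stayed within -0.20 to 0.12, while those of Adam10 reached -0.51 and 0.45. Adam12 had no probe set among the members.

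Mmp9, gelatinase B, a protease of osteoclasts and neutrophils, was higher wherever SPI was fed. Its probe set 1398275_at read 0.05, 0.16 and 0.16 with SPI, -0.06, -0.10 and -0.05 with E2, 0.26, 0.31 and 0.27 with SPI+E2, and -0.15, -0.17 and -0.16 in CAS. The SPI+E2 arrays were the highest, the SPI arrays next, then E2 and CAS, with no overlap between neighbouring groups. It rose by 0.44 log2 units (SE 0.0465, adjusted p = 2.08e-04) with SPI+E2 and by 0.29 log2 units (SE 0.0465, adjusted p = 0.00134) with SPI, and its change with E2 was 0.09 (adjusted p = 0.307). Probe set 1369166_at read 0.05, 0.10 and 0.16 with SPI, -0.16, -0.13 and -0.08 with E2, 0.25, 0.23 and 0.33 with SPI+E2, and -0.07, -0.05 and -0.10 in CAS, and here E2 and CAS overlapped. It rose by 0.34 log2 units (SE 0.0488, adjusted p = 0.00142) with SPI+E2 and by 0.18 log2 units (SE 0.0488, adjusted p = 0.0267) with SPI. The SPI call was lost without CAS 1, CAS 2, CAS 3, SPI 2 or SPI 3 (adjusted p up to 0.0909), and its change with E2 was -0.05 (adjusted p = 0.659).

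Both Mmp9 probe sets were also higher in SPI+E2 than in E2, by 0.39 (SE 0.0488, adjusted p = 4.40e-04) and 0.35 (SE 0.0465, adjusted p = 7.01e-04), and in SPI than in E2, by 0.23 and 0.19, of which the second lost its call without SPI 2 or E2 2 (adjusted p = 0.0517 and 0.0518). SPI+E2 exceeded SPI by 0.17 (adjusted p = 0.0496) and 0.16 (adjusted p = 0.051), which falls on either side of the threshold, and the called one was lost with any 1 of 11 arrays left out (adjusted p up to 0.157). The interaction passed on neither, at 0.22 (adjusted p = 0.0754) and 0.06 (adjusted p = 0.646).

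Mmp8, the neutrophil collagenase, passed in 1 comparison, SPI+E2 against E2. Its means were -0.02 ± 0.07 with SPI, -0.22 ± 0.06 with E2, 0.11 ± 0.10 with SPI+E2 and -0.07 ± 0.19 in CAS (SD, n = 3 each). The difference of SPI+E2 from E2 was 0.32 (SE 0.0889, adjusted p = 0.04) and was lost with any 1 of 7 arrays left out (adjusted p up to 0.13), and against CAS its changes were 0.05, -0.14 and 0.18 for SPI, E2 and SPI+E2.

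Markers of 3 cell types known to make Mmp9 were read beside it. Of 9 neutrophil genes listed, 4 were measured (Lcn2, Camp, S100a8 and S100a9), and their mean lay between 0.10 and 0.15 on SPI arrays, -0.26 and -0.23 on E2 arrays, 0.31 and 0.39 on SPI+E2 arrays, and -0.10 and -0.08 on CAS arrays. With SPI 3 of the 4 were higher, with E2 3 lower, and with SPI+E2 3 higher. Beside these and the next 2 lists, 25.4%, 14.2% and 12.9% of all 14217 genes were called in either direction with SPI, E2 and SPI+E2. The mean of the 8 osteoclast genes measured, of 12 listed, lay between 0.02 and 0.07 with SPI, -0.15 and -0.10 with E2, 0.06 and 0.12 with SPI+E2, and at 0.01 to 0.02 in CAS, with 1, 0 and 3 higher and 2, 3 and 1 lower for SPI, E2 and SPI+E2. Cathepsin K, the collagenase of osteoclasts, was at 0.23, -0.06 and 0.34 in these comparisons, and the E2 value did not pass (adjusted p = 0.289). It was the 1 osteoclast gene called higher with SPI, while 2 others were lower with SPI and 1 other was lower with SPI+E2. The mean of 7 macrophage genes lay between -0.09 and 0.03 with SPI, -0.06 and 0.00 with E2, 0.07 and 0.12 with SPI+E2, and 0.00 and 0.02 in CAS, with 2 higher after SPI+E2 and 0 called otherwise against CAS. The part of these cell types in the Mmp9 result was not tested.

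**Figure D3:**
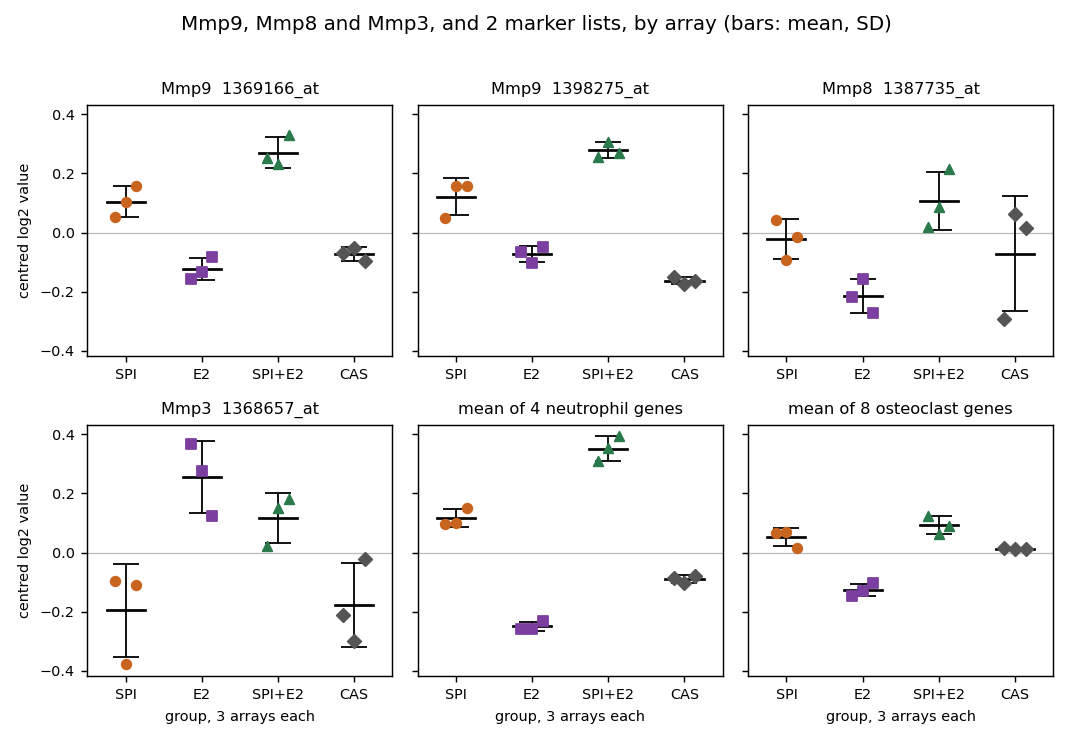
Centred log2 value (y axis) on each array by group (x axis, 3 arrays each) for both Mmp9 probe sets, Mmp8, Mmp3, and the means of 4 neutrophil and 8 osteoclast genes, with bars for the mean and SD. SPI+E2 arrays are the highest in Mmp9 and in the neutrophil mean, and in Mmp3 the E2 arrays lie above the CAS arrays while SPI overlaps CAS.

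Mmp3, stromelysin 1, which cuts proteoglycans and activates other proMMPs, was the Mmp with the largest E2 change. Probe set 1368657_at read -0.10, -0.38 and -0.11 with SPI, 0.37, 0.28 and 0.12 with E2, 0.02, 0.15 and 0.18 with SPI+E2, and -0.21, -0.30 and -0.02 in CAS. All 3 E2 arrays and all 3 SPI+E2 arrays lay above the CAS arrays, and SPI overlapped CAS. It was 1.35-fold higher with E2, by 0.43 log2 units (SE 0.0959, adjusted p = 0.0129), a call lost without CAS 1, CAS 2 or E2 1 (adjusted p = 0.0528 to 0.063). The change was 0.30 (adjusted p = 0.0826) with SPI+E2 and -0.02 (adjusted p = 0.931) with SPI, and the difference of SPI from E2 was -0.45 (SE 0.0959, adjusted p = 0.00772). Mmp10, from the same stretch of chromosome 8, was at 0.30 (adjusted p = 0.293) with E2, and Mmp13, the main interstitial collagenase of rodent bone, at 0.11 (adjusted p = 0.177). Mmp13 arrays were tight, with a SD of 0.0133 with E2 and 0.0137 in CAS, and the 95% interval of its E2 change was 0.01 to 0.20, against -0.03 to 0.63 for Mmp10. With SPI and SPI+E2, Mmp13 was at 0.06 and 0.06.

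Of the membrane-type MMPs, Mmp17 and Mmp15 were higher with each single treatment. Mmp17, which is held in the membrane by a lipid anchor, on probe set 1376410_at read 0.16, 0.23 and 0.05 with SPI, 0.00, 0.09 and 0.03 with E2, -0.03, 0.00 and -0.05 with SPI+E2, and -0.16, -0.27 and -0.19 in CAS. All arrays of the 3 treated groups lay above the CAS arrays. It rose by 0.35 log2 units (SE 0.0561, adjusted p = 0.00112) with SPI and 0.25 log2 units (SE 0.0561, adjusted p = 0.0143) with E2, the second lost without CAS 2 or E2 2 (adjusted p = 0.0675 and 0.0635), and its change with SPI+E2 was 0.18 (adjusted p = 0.0746). Mmp15 rose by 0.24 (adjusted p = 0.0167) with SPI, lost without CAS 1 or CAS 2 (adjusted p = 0.0673 and 0.053), and by 0.25 (adjusted p = 0.0223) with E2, lost without CAS 1, CAS 2, E2 1 or E2 2 (adjusted p up to 0.0898), while SPI+E2 was at 0.03 (adjusted p = 0.783). In both genes the interaction was below 0, at -0.42 (SE 0.0794, adjusted p = 0.00445) for Mmp17 and -0.45 (SE 0.0847, adjusted p = 0.0045) for Mmp15.

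Several members were lower on the SPI diet, some of them also with SPI+E2, and Adamts8 had the largest of these changes. Adamts8, a secreted protease with reported activity on aggrecan, on probe set 1379022_at read -0.43, -0.42 and -0.44 with SPI, 0.31, 0.28 and 0.28 with E2, -0.25, -0.42 and -0.17 with SPI+E2, and 0.26, 0.18 and 0.17 in CAS. Every SPI and SPI+E2 array lay below every E2 and CAS array. It was 1.55-fold lower with SPI, a change of -0.64 log2 units (SE 0.0608, adjusted p = 2.66e-05). With SPI+E2 it was 1.4-fold lower, at -0.49 log2 units (SE 0.0608, adjusted p = 6.31e-04), and its change with E2 was 0.08 (adjusted p = 0.529). Against E2 it fell by 0.72 with SPI and by 0.57 with SPI+E2 (adjusted p = 2.33e-05 and 1.60e-04). The interaction was 0.06 (adjusted p = 0.742), and these calls held when any 1 array was left out.

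Mmp2, gelatinase A, had 2 probe sets that differed. Probe set 1370301_at read -0.21, -0.13 and -0.14 with SPI, 0.12, 0.09 and 0.06 with E2, -0.11, -0.06 and -0.13 with SPI+E2, and 0.13, 0.13 and 0.12 in CAS. All SPI and SPI+E2 arrays were below 0 and all E2 and CAS arrays above it. Its change with SPI was -0.28 (SE 0.0441, adjusted p = 9.66e-04) and it fell by 0.23 with SPI+E2 (SE 0.0441, adjusted p = 0.00877), and its E2 change was -0.03 (adjusted p = 0.758). Probe set 1369825_at was at -0.01, 0.03 and -0.03 for SPI, E2 and SPI+E2, and the mean of both probe sets lost the SPI+E2 call.

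The membrane proteases Mmp14 and Mmp16, of which Mmp14 activates proMmp2, were lower with SPI as well. Mmp16 averaged -0.13 ± 0.05 with SPI, 0.11 ± 0.07 with E2, -0.06 ± 0.03 with SPI+E2 and 0.14 ± 0.05 in CAS (SD, n = 3 each). It fell by 0.27 on the SPI diet (adjusted p = 0.00454). The change with SPI+E2 was -0.20 (adjusted p = 0.0402), and this call was lost with any 1 of 7 arrays left out (adjusted p up to 0.125). Mmp14 fell by 0.23 with SPI on 1378225_at (adjusted p = 0.00567), where SPI+E2 was at -0.08 (adjusted p = 0.307). On its other probe set, 1367860_a_at, the SPI change was -0.14 (adjusted p = 0.114).

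Adamts1 and Adamts5, neighbouring genes of aggrecan-cleaving enzymes, were lower with SPI than with E2. Probe set 1394483_at of Adamts5 read -0.43, -0.20 and -0.12 with SPI, 0.26, 0.10 and 0.20 with E2, -0.13, -0.09 and 0.08 with SPI+E2, and 0.13, -0.03 and 0.03 in CAS. The SPI arrays lay below all E2 and CAS arrays, and SPI+E2 lay between, overlapping SPI and CAS. The difference of SPI from E2 was -0.44 (SE 0.0857, adjusted p = 0.00448) and from CAS -0.30 (SE 0.0857, adjusted p = 0.034), the CAS call being lost without CAS 1, CAS 3, SPI 1 or SPI 2 (adjusted p up to 0.127). The second Adamts5 probe set, 1384724_at, did not pass, at -0.20 (adjusted p = 0.112) for SPI against E2 and -0.08 for SPI against CAS.

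Adamts1, on probe set 1368223_at, read -0.16, -0.13 and -0.14 with SPI, 0.24, 0.02 and 0.22 with E2, 0.05, -0.16 and -0.04 with SPI+E2, and 0.09, 0.10 and -0.02 in CAS. The SPI arrays were tight and lay below all arrays of E2 and CAS. The difference of SPI from E2 was -0.30 (SE 0.0706, adjusted p = 0.0136), lost without E2 1 or E2 3 (adjusted p = 0.0602 and 0.0577), and its change against CAS was -0.20 (adjusted p = 0.0774). Adamts12, which degrades the cartilage protein Comp, was also lower with SPI than with E2, at -0.26 (adjusted p = 0.0317), lost without SPI 1, SPI 3, E2 1 or E2 2 (adjusted p up to 0.125). Adamts4, the other main aggrecanase, had 0.00, 0.04 and -0.08 against CAS for SPI, E2 and SPI+E2, with 95% intervals within -0.23 to 0.19, and passed nothing.

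Adamts9, a secreted protease of versican and aggrecan, went the other way on 1376481_at, which read 0.06, 0.16 and 0.16 with SPI, -0.08, -0.19 and -0.07 with E2, 0.10, 0.06 and 0.06 with SPI+E2, and -0.11, -0.15 and -0.06 in CAS. All SPI and SPI+E2 arrays were above 0 and all E2 and CAS arrays below it. It rose by 0.23 log2 units (SE 0.0522, adjusted p = 0.00919) with SPI, and its changes were 0.18 (adjusted p = 0.0562) with SPI+E2 and -0.01 (adjusted p = 0.958) with E2. The second Adamts9 probe set, 1394518_at, passed nothing, with 0.16, -0.08 and 0.07 against CAS for SPI, E2 and SPI+E2. The difference of SPI from E2 was 0.24 on both, with a SE of 0.0522 on 1376481_at and 0.144 on 1394518_at. Adamts10, which binds fibrillin microfibrils, passed with SPI+E2 on 1 of 2 probe sets, at 0.18 (adjusted p = 0.0397), lost with any 1 of 8 arrays left out (adjusted p up to 0.131) and on the mean of both (0.05, adjusted p = 0.66). Adamts16 had the largest Adamts change with E2 and did not pass, at 0.15 (adjusted p = 0.38). It read 0.13, -0.09 and -0.25 with SPI, 0.17, 0.16 and 0.07 with E2, 0.02, -0.20 and -0.08 with SPI+E2, and -0.06, -0.02 and 0.02 in CAS, so that the E2 arrays lay above CAS while 1 SPI array reached their range.

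Fibroblast and tendon genes were lower in the SPI-fed groups too. The mean of 11 of them lay between -0.14 and -0.06 on SPI arrays, 0.10 and 0.11 on E2 arrays, -0.13 and -0.11 on SPI+E2 arrays, and at 0.05 on CAS arrays. Of the 11, 7 were lower and 1 higher with SPI, 0 lower and 1 higher with E2, and 6 lower and 1 higher with SPI+E2. Of all 14217 genes, 25.4%, 14.2% and 12.9% were called in either direction with SPI, E2 and SPI+E2. The mean of 6 osteocyte genes lay between -0.29 and -0.18 with SPI, 0.09 and 0.13 with E2, -0.19 and -0.06 with SPI+E2, and 0.07 and 0.12 in CAS, and 4 of the 6 were lower with SPI, 0 with E2 and 4 after both. Of 10 chondrocyte genes measured, 0 were higher in any treatment, while 8 were lower with SPI, 5 with E2, and 7 after both. Osteoblast genes did not show this order. The mean of 8 of them lay between -0.01 and 0.01 with SPI and 0.01 and 0.02 with E2. It lay between -0.04 and 0.01 with SPI+E2 and -0.01 and 0.01 in CAS. Of the 8, 1 was higher and 0 lower with SPI, 0 and 0 with E2, and 1 and 1 with SPI+E2. The part of these cells in the protease results was not tested.

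**Figure D4:**
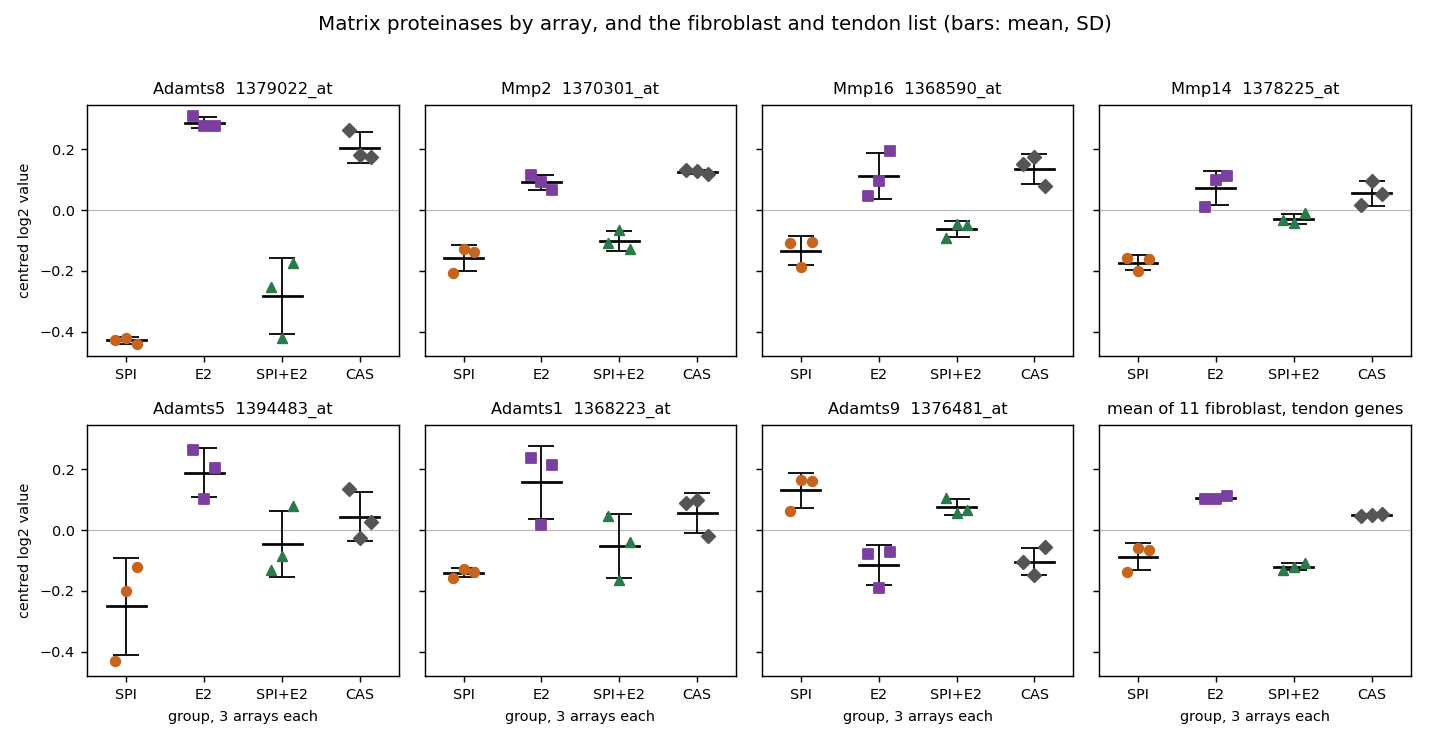
Centred log2 value (y axis) on each array by group (x axis, 3 arrays each) for Adamts8, Mmp2, Mmp16, Mmp14, Adamts5, Adamts1 and Adamts9, and the mean of 11 fibroblast and tendon genes, with bars for the mean and SD. Each gene is shown on its probe set with the smallest F-test p. SPI and SPI+E2 arrays lie below E2 and CAS in Adamts8, Mmp2 1370301_at and the fibroblast mean, and Adamts9 1376481_at shows the opposite order. The other probe sets of Mmp2, Mmp14, Adamts5 and Adamts9 are not shown.

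The calls among the inhibitors fell in different comparisons, and their differences were not tested against each other. Timp1, the soluble inhibitor of most MMPs, on probe set 1367712_at read 0.04, -0.09 and -0.13 with SPI, -0.01, 0.01 and 0.03 with E2, -0.17, -0.16 and -0.18 with SPI+E2, and 0.08, 0.08 and 0.13 in CAS. The SPI+E2 arrays were the lowest and the CAS arrays the highest, without overlap between these 2 groups. It fell by 0.26 with SPI+E2 (SE 0.0502, adjusted p = 0.00813), and its changes were -0.16 (adjusted p = 0.0532) with SPI and -0.08 (adjusted p = 0.408) with E2. The smaller difference of SPI+E2 from E2, -0.18 (adjusted p = 0.044), was lost with any 1 of 10 arrays left out (adjusted p up to 0.133).

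Timp2, which inhibits MMPs and also links proMmp2 to Mmp14, passed between treatments and not against CAS, although on the mean of its 2 probe sets the E2 change was 0.14 (adjusted p = 0.0364). Its probe set 1367823_at read -0.04, -0.06 and -0.06 with SPI, 0.11, 0.35 and 0.15 with E2, -0.04, 0.01 and -0.01 with SPI+E2, and -0.01, 0.09 and 0.11 in CAS. The E2 arrays lay above all SPI and SPI+E2 arrays and overlapped CAS. From E2, SPI differed by -0.26 (SE 0.0627, adjusted p = 0.0158) and SPI+E2 by -0.22 (SE 0.0627, adjusted p = 0.0488), the second lost with any 1 of 11 arrays left out (adjusted p up to 0.141). The other Timp2 probe set, 1386940_at, passed nothing, with 0.01, 0.13 and -0.01 against CAS for SPI, E2 and SPI+E2.

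Timp3, the inhibitor that binds the extracellular matrix and also blocks several ADAM and ADAMTS enzymes, had 4 probe sets. Probe set 1389836_a_at read -0.06, -0.01 and 0.04 with SPI, 0.13, 0.13 and 0.07 with E2, 0.05, 0.01 and -0.07 with SPI+E2, and -0.16, -0.10 and -0.13 in CAS. All arrays of the 3 treated groups lay above CAS, E2 highest. It rose by 0.24 log2 units (SE 0.0501, adjusted p = 0.00863) with E2, and its changes were 0.12 (adjusted p = 0.131) with SPI and 0.13 (adjusted p = 0.143) with SPI+E2. Probe set 1372926_at read -0.48, -0.10 and -0.10 with SPI, 0.13, 0.34 and 0.38 with E2, -0.19, -0.25 and 0.14 with SPI+E2, and 0.10, 0.11 and -0.14 in CAS. The E2 arrays were above all SPI arrays, and SPI 1 lay far below the other SPI arrays. SPI differed from E2 by -0.51 (SE 0.128, adjusted p = 0.0183), lost without SPI 1, E2 2 or E2 3 (adjusted p up to 0.0716), and neither group passed against CAS, at -0.25 for SPI and 0.26 for E2.

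The third Timp3 probe set, 1375138_at, passed for SPI+E2 against E2 at -0.25 (adjusted p = 0.0329) and for the interaction at -0.33 (adjusted p = 0.0456), calls lost with any 1 of 5 and of 9 arrays left out (adjusted p up to 0.117 and 0.114). On the mean of the 4 probe sets the interaction was -0.21 (adjusted p = 0.0964) and did not pass. The fourth, 1368989_at, passed nothing, with an SD of 0.225 with SPI+E2. On all 4 the E2 mean was the highest of the groups, while only 1 passed for E2 against CAS. Timp4, known mainly from heart, on probe set 1377632_at read -0.40, 0.16 and -0.11 with SPI, -0.13, -0.03 and 0.03 with E2, 0.28, 0.29 and 0.28 with SPI+E2, and -0.16, 0.11 and -0.09 in CAS. The SPI+E2 arrays were nearly identical and above all others, and the SPI arrays were spread widely. SPI+E2 was above SPI by 0.40 (SE 0.116, adjusted p = 0.046), lost with any 1 of 10 arrays left out (adjusted p up to 0.117), and above CAS by 0.33 (adjusted p = 0.106), which did not pass.

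**Figure D5:**
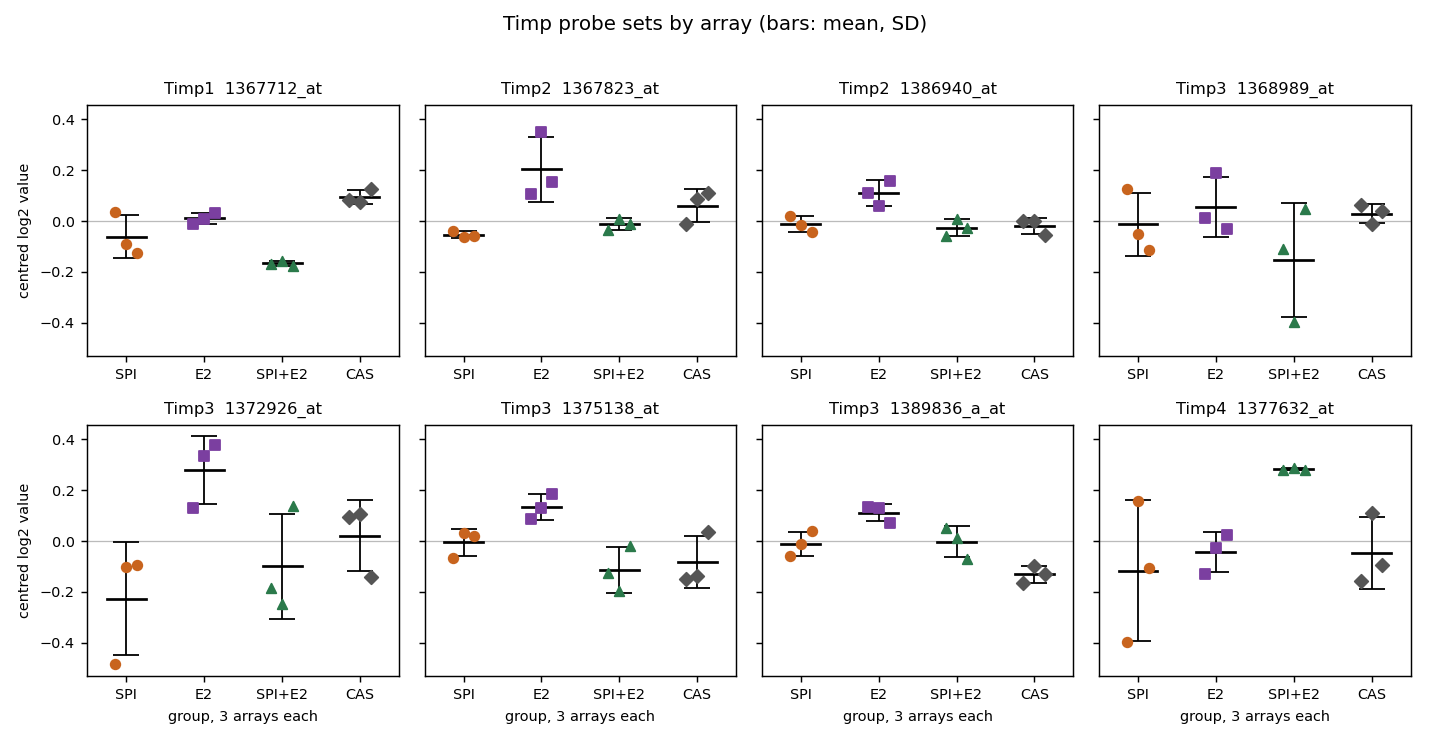
Centred log2 value (y axis) on each array by group (x axis, 3 arrays each) for all 8 Timp probe sets, with bars for the mean and SD. Timp1 is lowest with SPI+E2 and highest in CAS, E2 has the highest mean of the 4 Timp3 probe sets, and Timp4 stands highest with SPI+E2.

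The probe sets of one gene often differed in whether they passed, which bears on how each gene is read. This was not always a difference in size or direction. For SPI against E2 both Adamts9 probe sets were at 0.24, and for SPI against CAS those of Mmp14 were at -0.23 and -0.14. Those of Mmp2 were farther apart, at -0.28 and -0.01 for SPI against CAS. Of 15 genes with more than 1 probe set, Mmp9 alone had all of them past the test in some comparison, 10 had some but not all, and Mmp23, Mmp24, Adam8 and Adam10 had none. The probe sets that passed nothing included Mmp7, Mmp11, Mmp12, Mmp19 and Mmp28 among the MMPs, of which Mmp12, macrophage elastase, had -0.14, -0.02 and 0.08 against CAS for SPI, E2 and SPI+E2.

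Genes of MMP activation and membrane regulation were read from a list of 21, of which 18 were measured and averaged per gene. The list also holds separate proteases such as Mme. With SPI 1 was higher and 3 lower, with E2 3 higher and 1 lower, with SPI+E2 2 higher and 3 lower, and in SPI against E2 0 were higher and 5 lower. Of all 14217 genes 25.4%, 14.2%, 12.9% and 24.1% were called in these 4 comparisons. Plau, urokinase, which turns plasminogen into plasmin, had a change of -0.32 with SPI (adjusted p = 8.38e-04), and of -0.21 after both (adjusted p = 0.0224). Thbs2, thrombospondin 2, which binds MMPs for uptake, fell by 0.22 with SPI (adjusted p = 0.0086) while with E2 it rose by 0.23 (adjusted p = 0.0107). Reck, a membrane inhibitor of MMPs, rose by 0.16 with E2 (adjusted p = 0.039), and Furin, which activates membrane-type proMMPs, fell by 0.20 with E2 (adjusted p = 0.0188). Mme, the membrane metalloprotease neprilysin, rose by 0.23 with SPI (adjusted p = 0.0107), and after both by 0.33 (adjusted p = 0.00278).

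Among 12 cathepsin and cystatin genes, lysosomal proteases and their inhibitors, 4 were higher and 3 lower with SPI, 2 higher and 0 lower with E2, and 4 higher and 0 lower with SPI+E2. Ctsz rose by 0.36 with SPI and 0.47 with SPI+E2 (adjusted p = 4.27e-04 and 1.80e-04), and Ctsk by 0.23 and 0.34 (adjusted p = 5.02e-04 and 1.01e-04). Of 15 genes of matrix that the proteases can cut, 9 were lower and 2 higher with SPI, 3 lower and 1 higher with E2, and 9 lower and 1 higher with SPI+E2. Beside both lists, 25.4%, 14.2% and 12.9% of all 14217 genes were called in either direction with SPI, E2 and SPI+E2. The lists overlap, so their counts are not separate observations. Acan, Comp and several collagen genes are also chondrocyte genes above, Dcn and Fn1 are also in the fibroblast and tendon list, and Ctsk is also in the osteoclast list. Acan, aggrecan, had a change of -0.49 with SPI (adjusted p = 6.03e-06), of -0.08 with E2 (adjusted p = 0.248) and of -0.30 after both (adjusted p = 6.48e-04), and Eln, elastin, rose by 0.44, 0.54 and 0.59 with SPI, E2 and SPI+E2 (adjusted p = 1.00e-04, 2.54e-05 and 3.94e-05). Bone collagen genes Col1a1 and Col1a2 passed against CAS in none of the 3 treatments, with changes between -0.06 and 0.01. These lists were chosen with earlier results of the same arrays known and are a description beside the proteases.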

How the data were processed

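RNA of right tibia, pooled over 2 to 3 rats per array, was measured on 12 Affymetrix rat expression arrays. The authors summarised the arrays with GCOS and RMA, and the deposited log2 values were then normalized per chip and per gene in GeneSpring, so that the largest absolute probe set median is 5e-07; the versions of GCOS and RMA are not given in the sources used here, and the log base is taken from the RMA step. All 12 sample columns were used (0 were left out).

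Of 31099 probe sets, 57 controls were left out. limma 3.58.1 (R 4.3.3) was fitted to all 4 groups, with empirical Bayes variances, contrasts between groups, an interaction and an F test, and 95% intervals. Gene lists were fitted on per-gene means of 14217 genes. The fit was run on simulated data with independent noise, no batch and larger changes than most members had. That run does not check the calls made here. Genes with values on all arrays were the up to 4 of each family with the smallest F-test p, and the largest change of each family against CAS. The members and lists were chosen with earlier results of these data known. Alternatives were a replicate block, quantile and median normalization, trended robust variances, array weights, per-gene means, 2-group fits and leaving out each array, and the methods' ANOVA was run beside the F test.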

Additional observations from a re-analysis of the deposited data

Results flagged for a closer look

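In 9 members the effect of E2 on the SPI diet differed from its effect on the casein diet, by the interaction term of the limma fit. For Adam22 1374187_at the difference was -1.85 log2 units (adjusted p = 9.56e-06), with an E2 effect of -0.87 on SPI and 0.98 on casein. For Adam23 1374635_at it was -1.07 (adjusted p = 3.66e-05), with -0.59 and 0.48, and for Adam11 it was -1.19 (adjusted p = 2.92e-04), with -0.67 and 0.52. For Mmp17 it was -0.42 (adjusted p = 0.00445), with -0.18 and 0.25, and for Mmp15 -0.45 (adjusted p = 0.0045), with -0.21 and 0.25. For Adam19 1389151_at it was -0.34 (adjusted p = 0.0108), with -0.13 and 0.21, and -0.07 on the mean of the 4 Adam19 probe sets (adjusted p = 0.652). The E2 effect on SPI did not itself pass for Mmp17 (adjusted p = 0.068) or Adam19 1389151_at (adjusted p = 0.146).

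Smaller or less certain differences were -0.76 for Adam22 1385343_at (adjusted p = 0.0272, with -0.38 on SPI and 0.38 on casein), -0.33 for Timp3 1375138_at (adjusted p = 0.0456, with -0.11 and 0.22, and lost on the mean of the 4 Timp3 probe sets) and -0.55 for Adam23 1397367_at (adjusted p = 0.0482, with -0.36 and 0.19). Each of these last 3 lost its call when certain single arrays were left out, as given with the genes. In each of them the E2 effect passed on neither diet by itself.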

How the results depend on the processing

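Of 56 counts of called members under other settings, 52 stayed within 1.5 times. The exceptions were SPI+E2 against SPI, with 4 under trended robust variances and 3 with only the 2 groups fitted, against 7, SPI+E2 against E2, with 8 in the 2-group fit against 13, and the interaction, with 5 on gene means against 9.

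Leaving out each array in turn gave 11 to 17 calls for SPI against CAS, 4 to 8 for E2 against CAS, 5 to 12 for SPI+E2 against CAS, 11 to 15 for SPI against E2, 3 to 9 for SPI+E2 against SPI, 6 to 14 for SPI+E2 against E2, 6 to 9 for the interaction and 18 to 22 for the F test. Without CAS 1 the counts were 11 for SPI against CAS, 5 for E2 and SPI+E2 each, and 4 for SPI+E2 against SPI, without CAS 2 the E2 count was 4, and without CAS 3 SPI+E2 against E2 gave 8. Without SPI 1 SPI+E2 against SPI gave 3. Without E2 1 or E2 3, SPI+E2 against SPI gave 4 and SPI+E2 against E2 6, and without E2 2 these were 4 and 6 and E2 against CAS 5. Without SPI+E2 1, SPI+E2 against CAS gave 5 and against E2 6, and without SPI+E2 2 SPI+E2 gave 5 against CAS, 4 against SPI and 7 against E2.

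Deviations of pools with the same number correlated at a median r of 0.0439 (-0.0741 to 0.244, over 0.1 in 4 of 18 pairs, 3 of them among the pools numbered 3 of the treated groups), against -0.0149 for other numbers (over 0.1 in 3 of 36). Those 3 pairs were all of SPI 1 with a pool numbered 2, at 0.151 with CAS 2, 0.185 with E2 2 and 0.202 with SPI+E2 2. Since not every pair was over 0.1 and not every array correlated best with its own number, the numbers were not taken to pair the samples. Another grouping of the pools was not tested, and the block below keeps SPI 1 with the pools numbered 1. With the pool number as a replicate block SPI gave 16 calls against CAS, E2 9, and SPI+E2 6. SPI against E2 gave 16, SPI+E2 gave 5 against SPI and 10 against E2, the interaction 9 and the F test 23. Of 77 calls of named members 0 reversed, 38 held under every setting run, and 43 held with each array left out, while 9 were lost with the block. The methods' ANOVA called 33 of the 74 members unadjusted and 25 of the 74 after Benjamini-Hochberg. Of all 31042 probe sets it called 11031 (35.5%) and 7040 (22.7%). The centred values carry no background level, so filters on dim probe sets and background correction were not run.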
